A study of Mus musculus with 56 samples.

Results

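Nqo1, Hmox1, Gclc, Gclm, Txnrd1, Srxn1, Gsr, Cat, Sod1 and Sod2 encode enzymes of the defence against oxidants and electrophiles, most of them known targets of the transcription factor NRF2. These 10 genes were chosen by name from an RNA-seq table of mouse liver, and all 10 were found among its 23813 genes, each represented by the first of its listed transcripts. NRF2 is normally held by KEAP1, an adaptor that hands it to a ubiquitin ligase for degradation. When oxidants or electrophiles modify KEAP1, NRF2 accumulates, pairs with a small MAF protein and binds antioxidant response elements, while BACH1 is a repressor that competes for the same elements. In the liver the targets make and recycle glutathione, keep thioredoxin and peroxiredoxins reduced, reduce quinones and break down haem, while catalase and the superoxide dismutases remove hydrogen peroxide and superoxide.

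Liver RNA was sequenced from male mice, 4 biological replicates in each of 3 groups. The methods give a mixed C57BL/6;129S background for the L-NCOR1ΔID line, and the strain of the WT mice used for RNA is not given in the sources used here. Every group was first made hypothyroid over 16 days with 0.15% propylthiouracil (PTU), a blocker of thyroid hormone synthesis, in iodine-poor chow. Hypothyroid WT mice were injected with vehicle, and hyperthyroid WT mice with 5 μg triiodothyronine (T3) into the peritoneum on the last 4 to 6 days. Hypothyroid L-NCOR1ΔID mice, which express in the liver a form of the corepressor NCOR1 without the domains that contact the thyroid hormone receptor, received PTU and no T3. The comparisons ask which genes respond to T3 and which respond to loss of the contact between NCOR1 and the receptor without hormone. L-NCOR1ΔID mice given T3 were not analysed here, so that whether the T3 response itself depends on NCOR1 was not tested. The age of each mouse was not used here. In the paper's group means, over more mice than were sequenced, the L-NCOR1ΔID mice were younger than the WT mice. Age and genotype can thus not be told apart in that comparison.

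Values are RPKM, reads per kilobase of transcript scaled to library size, and were compared as log2(RPKM + 0.1) with limma. The call in the T3 comparison required a log2 difference above 1 in size beside an adjusted p under 0.01, and the other comparisons had no limit on size. The value of 1 read in short RNAs put the depth at 28800000 to 37800000 reads per library in hypothyroid WT, 21100000 to 25800000 reads in hyperthyroid WT and 37700000 to 42300000 reads in L-NCOR1ΔID mice, so that the hyperthyroid libraries were the shallowest. The labels were checked with Dio1, a deiodinase gene induced by T3, which stood at 0.719 to 57.7 RPKM in hypothyroid and 459 to 641 RPKM in hyperthyroid WT livers. Ncor1, whose deleted exons are not resolved by a value per transcript, stood at 14.1 to 15.6 RPKM in hypothyroid WT livers and at 12.1 to 13.9 RPKM in L-NCOR1ΔID livers and is no check of the genotype. In bulk liver, fewer cells of a type and less RNA per cell cannot be told apart.

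Among the 10 genes, Cat had the highest level per transcript length in hypothyroid WT livers, with 1665 ± 55.6 RPKM (SD, n = 4), and ranked 24th of 23813 genes. Sod1 followed with 574 ± 42.1 RPKM, and together Cat and Sod1 made up 64.1% and 22.1% of the summed level of the 10 genes. Gclc (96.2 ± 6.34 RPKM) and Gclm (75.2 ± 4.36 RPKM) came next. Txnrd1 (51.5 ± 2.29 RPKM), Sod2 (48.5 ± 2.19 RPKM) and Gsr (48.3 ± 3.81 RPKM) overlapped between libraries, so that their order is not resolved. Srxn1 (19.7 ± 1.51 RPKM), Nqo1 (13.1 ± 2.87 RPKM) and Hmox1 (6.08 ± 1.32 RPKM) had the lowest levels, without overlap between them. In hyperthyroid livers Hmox1 moved from the lowest place to above Srxn1 and Nqo1, with a mean of 25.8 ± 10.5 RPKM, although its lowest library (16.9 RPKM) lay below the highest of Srxn1 (17.7 RPKM). Txnrd1, Gclc and Gclm then overlapped, with means of 66.4 ± 8.89, 61.4 ± 5.40 and 57.4 ± 5.24 RPKM.

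**Figure D1:**
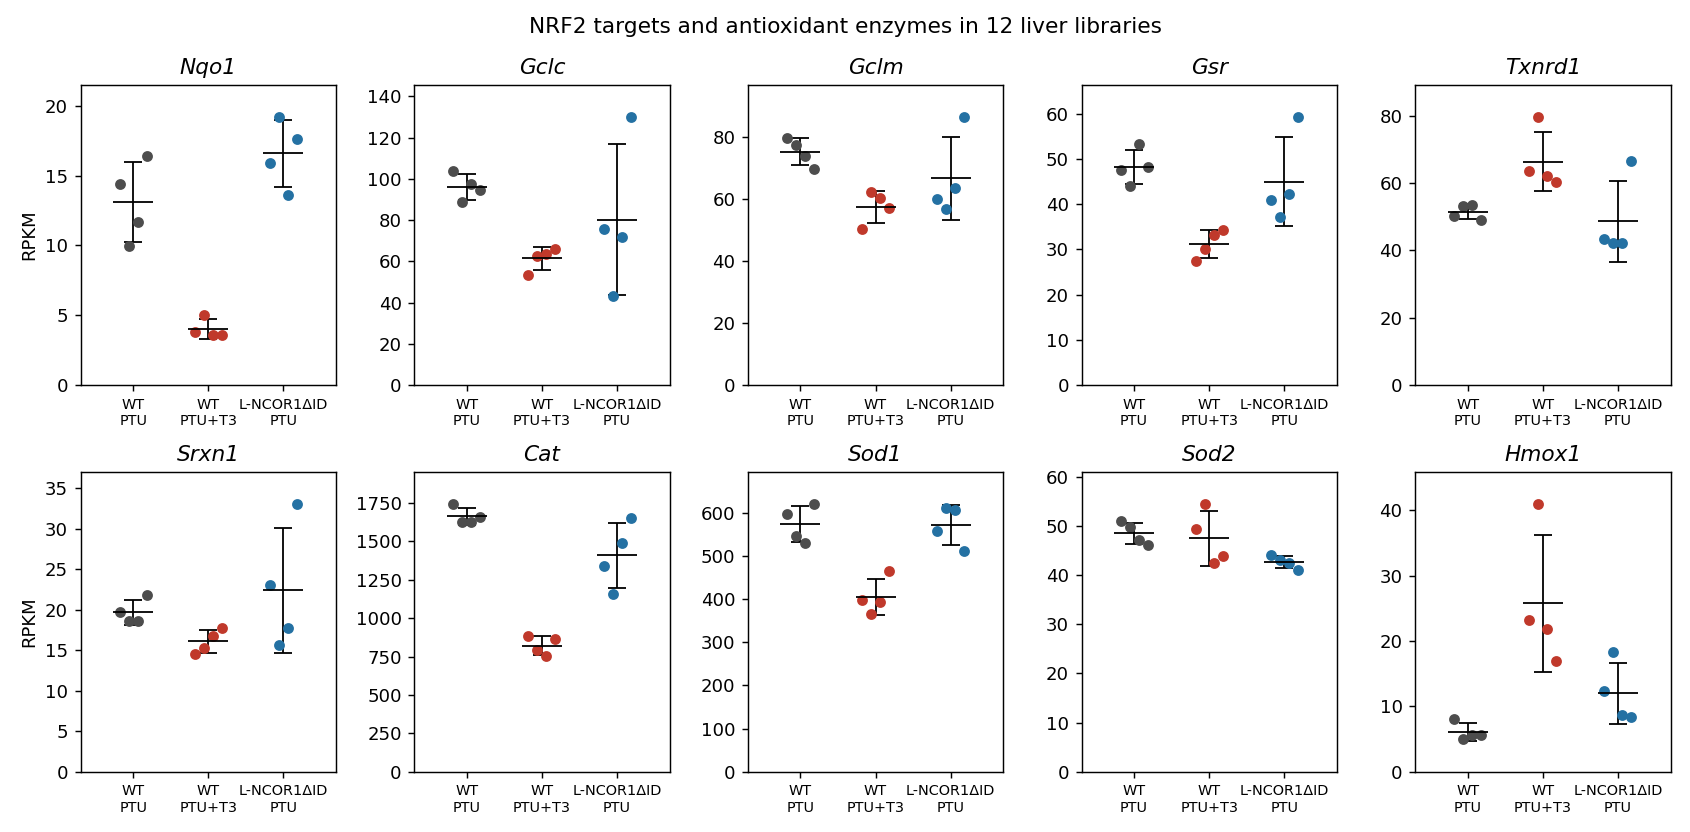
Level of each of the 10 genes in RPKM (linear axis from 0, with its own scale per gene) in the liver libraries of 3 groups, 4 each (points), with the mean and SD of each group (bar and whiskers). Nqo1 lay between 3.58 and 5.04 RPKM with T3 and at 9.94 RPKM or more in the other libraries, and Hmox1 lay between 16.9 and 41.0 RPKM with T3 and at 8.02 RPKM or less in hypothyroid WT livers.

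The promoters of the genes are shown because the study concerns a nuclear receptor, whose binding motif is built on AGGTCA, and because NRF2 binds the core TGACNNNGC. RefSeq promoters on build GRCm38.p6 were available for 7 of the 10 genes in 9 windows (3 for Txnrd1), and Hmox1, Gclc and Gsr were not among them. Both motifs were searched on both strands over 250 bases before and 50 bases after the start. The letters TGAC are shared by the NRF2 core and by AGGTCA read on the other strand, so that matches to both can overlap. The windows of Srxn1 and Sod2 and the other windows of Txnrd1 were searched but are not printed. For the rest the 250 bases before the start follow 5′ to 3′ in the direction of the gene, with matches to either motif in capitals.
Nqo1 (chr8:107403206-107403455, minus strand): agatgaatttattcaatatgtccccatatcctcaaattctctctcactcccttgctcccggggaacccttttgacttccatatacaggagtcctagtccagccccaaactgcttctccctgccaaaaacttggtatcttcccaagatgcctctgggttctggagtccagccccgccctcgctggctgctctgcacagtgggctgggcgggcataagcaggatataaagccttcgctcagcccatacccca
Gclm (chr3:122245307-122245556, plus strand): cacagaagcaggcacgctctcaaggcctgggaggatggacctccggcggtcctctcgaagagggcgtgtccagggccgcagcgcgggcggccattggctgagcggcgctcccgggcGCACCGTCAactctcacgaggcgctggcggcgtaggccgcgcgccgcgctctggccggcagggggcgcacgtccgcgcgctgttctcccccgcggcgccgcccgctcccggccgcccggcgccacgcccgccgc
Txnrd1, the second of 3 windows (chr10:82858956-82859205, plus strand): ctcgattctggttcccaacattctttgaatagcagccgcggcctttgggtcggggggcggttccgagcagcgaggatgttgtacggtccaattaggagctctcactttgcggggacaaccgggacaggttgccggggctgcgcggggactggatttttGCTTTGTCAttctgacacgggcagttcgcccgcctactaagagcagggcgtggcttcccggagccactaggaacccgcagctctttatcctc
Cat (chr2:103485154-103485403, minus strand): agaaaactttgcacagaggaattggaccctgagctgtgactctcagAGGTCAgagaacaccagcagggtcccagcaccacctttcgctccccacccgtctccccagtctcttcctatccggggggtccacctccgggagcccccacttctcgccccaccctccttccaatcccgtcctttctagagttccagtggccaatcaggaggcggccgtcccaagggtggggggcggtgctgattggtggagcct
Sod1 (chr16:90220512-90220761, plus strand): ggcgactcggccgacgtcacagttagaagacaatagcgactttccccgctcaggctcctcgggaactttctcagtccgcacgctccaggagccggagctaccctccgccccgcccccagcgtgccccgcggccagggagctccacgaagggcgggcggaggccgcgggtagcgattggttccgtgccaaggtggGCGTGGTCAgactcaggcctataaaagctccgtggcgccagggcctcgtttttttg

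In the searched windows, the NRF2 core matched once before the start of Gclm (134 bases before), Txnrd1 (92 bases before) and Sod1 (56 bases before). Each match was on the strand opposite to the gene, so that the capitals show its complement. At Srxn1 the only match to the core, also on the opposite strand, began at base 29 after the start and overlapped a match to AGGTCA. The latter motif also occurred 204 bases before the start of Cat and 215 bases before that of Srxn1. Nqo1 and Sod2 held neither motif in their window. Over all 32851 windows of the table, 12.4% held the NRF2 core and 16.3% held AGGTCA. By gene, 14.0% of 27025 genes held the core in at least 1 window, beside 4 of the 7 genes described here. These are matches of letters, and binding was not measured.

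In the merged list of 37200 regions with acetylated H3K9 or H3K27 from hypothyroid and hyperthyroid WT livers (build mm9), the start site lay in a region for 9 of the 10 genes, taking gene positions from GENCODE M1 on the same build. The share was 86.1% over tested genes with a position and 95.9% over those expressed at least as highly as the lowest of the 10. The longest of these regions, 39323 bp (chr2:103288885-103328207), covered the whole of Cat. Regions of 21246 bp at Gclc (chr9:77590891-77612136), 18487 bp at Hmox1 (chr8:77601140-77619626), 10303 bp at Gclm (chr3:121947472-121957774) and 10138 bp at Sod1 (chr16:90215201-90225338) were also longer than the median of 3993 bp for regions at start sites. Those at Gsr (6119 bp), Nqo1 (4690 bp, chr8:109926136-109930825) and Sod2 (4082 bp) were nearer to this median but still above it. Only that at Srxn1 (2580 bp) was below it. The start site annotated for Txnrd1 (chr10, position 82296696) was 13253 bp from the nearest region, and 5 regions overlapped the gene. Only the outermost start of each gene was used. The promoter windows of Txnrd1 described above were not compared with the regions, so that acetylation at its other starts is not known here. Within 100 kb of the start site the number of regions ran from 1 at Srxn1 to 13 at Txnrd1, beside a median of 7 over tested genes. The list gives positions and no read numbers, so that a change in acetylation at these genes was not analysed here.

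T3 lowered Nqo1 and Cat and raised Hmox1 in WT livers. Of the 10 genes, 2 were called lower, where 3.47% of 13941 tested genes were, and 1 was called higher, where 8.28% were. At an adjusted p under 0.05 with no limit on size, 7 of the 10 were lower (11.7% of tested genes) and 2 were higher (37.6%). The same 7 genes were lower without overlap between groups (10.8% of tested genes), and the same 2 were higher without overlap (35.8%). Sod2 passed none of these rules. The median log2 difference of the 10 was -0.45, beside 0.23 over all tested genes. Scaling the libraries by the median of gene ratios brought the latter to 0.01 and the median of the 10 to -0.69. The T3 difference of each of the 10 genes is therefore also given after scaling, and other differences are unscaled unless stated.

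Nqo1, which reduces quinones with both electrons at once and is a standard readout of NRF2, was at 14.4, 9.94, 11.7 and 16.4 RPKM in hypothyroid WT livers. With T3 it was at 3.78, 5.04, 3.58 and 3.61 RPKM. Each hyperthyroid library was below each hypothyroid one, and the hyperthyroid values lay close together. Nqo1 fell by 1.68 on the log2 scale (SE 0.17), which is 3.20-fold lower (95% interval of the log2 difference -2.06 to -1.29, adjusted p = 9.0e-05), and by 1.91 after scaling.

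Hmox1, the inducible haem oxygenase that releases iron, carbon monoxide and biliverdin from haem, was at 8.02, 5.07, 5.58 and 5.65 RPKM in hypothyroid WT livers. With T3 it was at 23.3, 41.0, 21.9 and 16.9 RPKM, so that the groups were well apart while replicate 2 stood above the other hyperthyroid libraries. Hmox1 rose by 2.01 on the log2 scale (SE 0.25), 4.02-fold (95% interval 1.44 to 2.58, adjusted p = 2.8e-04), and by 1.77 after scaling. It thus moved opposite to Nqo1, another classical NRF2 target.

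Hmox1 is also high in macrophages, and the markers of these cells moved in the same direction. All 11 matched Kupffer cell and macrophage markers were called higher with T3, and none is listed at 0 in any group. Their summed level ran from 89.4 to 125 RPKM in hypothyroid and from 260 to 390 RPKM in hyperthyroid WT livers, a 3.34-fold difference of means. Clec4f, a lectin that marks Kupffer cells, had means of 13.9 and 54.0 RPKM, and Timd4, a receptor gene of resident macrophages, had means of 1.61 and 7.75 RPKM. Within the hyperthyroid group the library with the highest Hmox1 (replicate 2) had the lowest marker sum. Hmox1 divided by that sum, a ratio chosen after the values were seen, was 0.0567 to 0.0639 in hypothyroid WT livers, and in hyperthyroid livers it was 0.0690, 0.158, 0.0561 and 0.0468, on both sides of that range. The part of the macrophage markers in the rise of Hmox1 was not tested. Endothelial and stellate markers also moved with T3, 5 of 7 being higher and none lower at an adjusted p under 0.05. Their median log2 difference was 0.72 (0.49 after scaling), with summed levels of 52.4 to 74.3 RPKM in hypothyroid and 89.8 to 105 RPKM in hyperthyroid WT livers. After scaling, Pecam1 (adjusted p = 0.053) and Rgs5 (0.16) no longer passed that threshold. Of 5 tested blood and erythroid markers 4, all haemoglobin genes with near-identical copies, were higher and Alas2 was lower at that threshold. Of these, Hba-a1 (adjusted p = 0.064) and Hba-a2 (0.065) did not pass it after scaling. Of 5 cholangiocyte markers 1 was higher and 1 lower. Markers of hepatocytes were detected in every library and moved in both directions. Alb (means of 31804 and 14325 RPKM) and Ttr (4411 and 1502 RPKM) were called lower with T3, the call of Alb being lost after scaling (adjusted p = 0.024). Of the other 4, Cps1 (log2 difference -0.38, adjusted p = 0.045) was lower and Fgb (0.67, adjusted p = 0.027; 0.44 with 0.19 after scaling) higher at the weaker threshold, while Tat (0.29) and Apoa1 (0.12) did not pass it. The part of these cell types was not tested either.

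**Figure D2:**
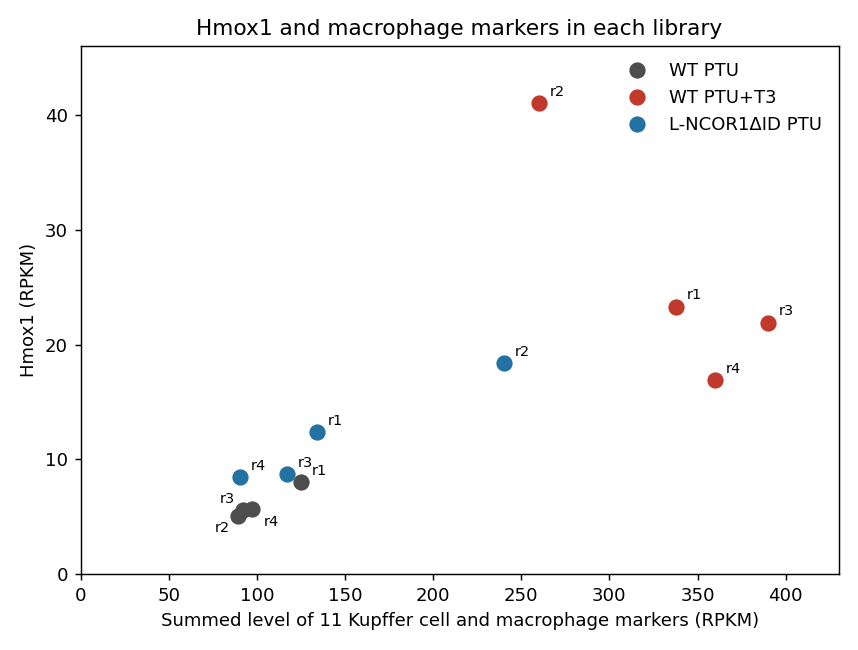
Hmox1 (RPKM, vertical) against the summed level of 11 Kupffer cell and macrophage markers (RPKM, horizontal) in each of the 12 libraries, with replicate numbers. Hyperthyroid libraries lie at sums of 260 to 390 RPKM, and of the other groups L-NCOR1ΔID replicate 2 comes nearest to them with a sum of 240 RPKM and 18.4 RPKM of Hmox1.

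Gclc, Gclm and Gsr were lower with T3, by less than the size limit, while Gss, which completes glutathione synthesis in the step after Gclc and Gclm, was higher at 45.3 to 60.9 RPKM beside 31.3 to 35.8 RPKM (log2 difference 0.62, adjusted p = 0.0011). Gclc, the catalytic subunit of glutamate-cysteine ligase and the limiting step of glutathione synthesis, was at 104, 88.8, 97.4 and 94.6 RPKM in hypothyroid and at 53.6, 62.4, 63.6 and 66.0 RPKM in hyperthyroid WT livers. Gclm, its modifier subunit, was at 79.8, 77.4, 73.8 and 69.8 RPKM and then at 50.2, 62.1, 60.3 and 57.2 RPKM. Gsr, the reductase that returns oxidised glutathione to its reduced form, was at 47.5, 44.1, 53.4 and 48.2 RPKM and then at 27.5, 30.2, 33.2 and 34.4 RPKM. None of the 3 genes overlapped between groups. The log2 differences were -0.65 for Gclc (SE 0.08, adjusted p = 3.2e-04), -0.39 for Gclm (SE 0.08, adjusted p = 0.0042) and -0.62 for Gsr (SE 0.09, adjusted p = 5.6e-04). After scaling they were -0.89, -0.63 and -0.86.

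Gclm fell less than Gclc in these values, and their ratio within a library, which is not affected by scaling, was compared as well. The ratio of Gclm to Gclc averaged 0.783 ± 0.0595 in hypothyroid and 0.936 ± 0.0523 in hyperthyroid WT livers (SD, n = 4). The highest hypothyroid ratio, 0.871, was above the lowest hyperthyroid one, 0.868. The exact two-sided permutation test gave p = 0.0571 (0.114 adjusted over the 4 ratio tests), where the smallest p that 4 against 4 libraries allow is 0.0286.

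Of the thioredoxin genes, Txnrd1, the cytosolic thioredoxin reductase, was higher with T3 at the weaker threshold. Its values were 50.3, 53.2, 53.6 and 48.9 RPKM in hypothyroid and 63.7, 79.6, 62.2 and 60.2 RPKM in hyperthyroid WT livers, without overlap. The log2 difference was 0.36 (SE 0.09, adjusted p = 0.012), and it was 0.12 with an adjusted p of 0.41 after scaling, so that a rise relative to the other genes is not shown. Srxn1, sulfiredoxin, which restores overoxidised peroxiredoxins, was at 19.8, 18.6, 18.6 and 21.8 RPKM and then at 14.5, 15.3, 16.8 and 17.7 RPKM. Its log2 difference was -0.29 (SE 0.09, adjusted p = 0.019), and -0.53 after scaling. Srxn1 did not pass an adjusted p of 0.05 without hypothyroid WT replicate 4 (0.055) or with all 12 libraries in 1 fit (0.20), in which Txnrd1 did not pass either (0.052).

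Cat, the peroxisomal enzyme that splits hydrogen peroxide, was at 1745, 1627, 1628 and 1658 RPKM in hypothyroid and at 882, 791, 755 and 862 RPKM in hyperthyroid WT livers. The spread within each group was small beside the distance between them. Cat fell by 1.02 on the log2 scale (SE 0.10), 2.03-fold (95% interval -1.25 to -0.79, adjusted p = 7.9e-05), and by 1.26 after scaling. This is just past the size limit, and without hypothyroid WT replicate 1 (adjusted p = 4.5e-04) or hyperthyroid replicate 3 (log2 difference -0.98, adjusted p = 2.7e-04) it no longer passed that limit. In RPKM it was the largest change of the 10 genes, and the summed level of the 10 went from 2520 to 2717 RPKM per hypothyroid library to 1453 to 1626 RPKM per hyperthyroid library.

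Of the superoxide dismutases, Sod1 was lower with T3 by less than the size limit, and Sod2 passed none of the rules. Sod1, the copper-zinc enzyme of the cytosol, was at 597, 547, 531 and 621 RPKM in hypothyroid and at 397, 365, 394 and 465 RPKM in hyperthyroid WT livers. Its log2 difference was -0.50 (SE 0.10, adjusted p = 0.0033), and -0.74 after scaling. Sod2, the manganese enzyme of mitochondria, was at 51.0, 49.7, 47.2 and 46.2 RPKM and then at 49.4, 54.5, 42.4 and 43.8 RPKM, with overlapping groups. Its log2 difference was -0.04 (95% interval -0.24 to 0.16, adjusted p = 0.75), and -0.28 with an adjusted p of 0.079 after scaling. The ratio of Sod2 to Sod1 was 0.0849 ± 0.00732 in hypothyroid and 0.119 ± 0.0238 in hyperthyroid WT livers (SD, n = 4), 1.38-fold higher and without overlap. The exact two-sided permutation test gave p = 0.0286, the smallest it allows, and 0.114 after adjustment over the 4 ratio tests. No ratio could pass 0.05 after this adjustment unless others also reached the smallest p, so that the adjusted value cannot decide for 1 ratio alone.

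**Figure D3:**
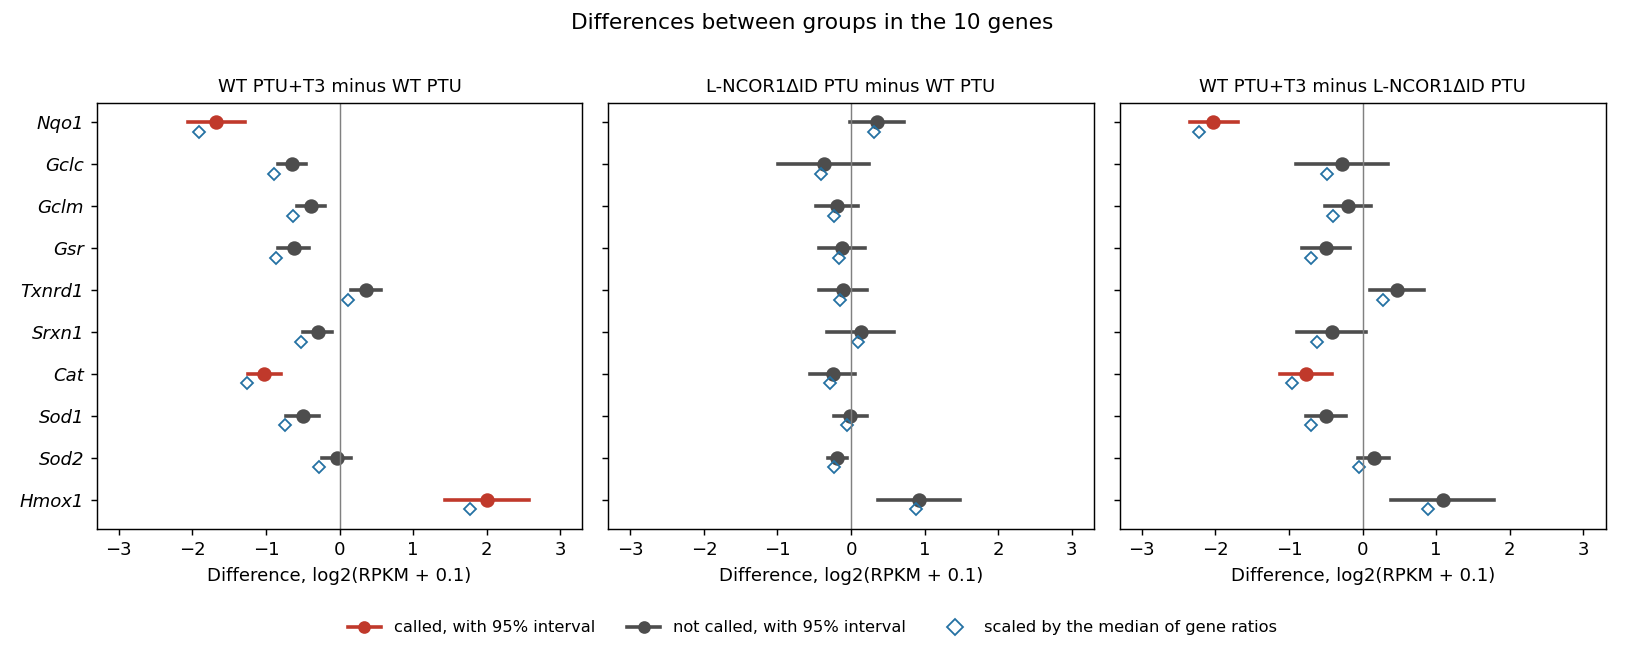
Difference between groups in log2(RPKM + 0.1) for each gene (circles, with the 95% interval; red where called) in the 3 comparisons, and the same difference after scaling by the median of gene ratios (blue diamonds). With T3 (left) 7 genes lie below 0 with their intervals and Hmox1 and Txnrd1 above, while the scaled value of Txnrd1 is 0.12.

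In hypothyroid L-NCOR1ΔID mice none of the 10 genes was called against hypothyroid WT, where 1.27% of 13790 tested genes were, and none had an adjusted p under 0.05 (4.36%) in limma. At an unadjusted p under 0.05, 1 was higher (Hmox1) and 1 was lower (Sod2). The share of all tested genes at an unadjusted p was not counted, here or for the lists below. The median log2 difference of the 10 was -0.12, beside 0.03 over all tested genes. This comparison uses the same 4 hypothyroid WT libraries as the T3 comparison.

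Hmox1 was at 12.4, 18.4, 8.75 and 8.45 RPKM in L-NCOR1ΔID livers, each above the highest WT value of 8.02 RPKM (7.78% of tested genes were higher without overlap). The log2 difference was 0.92 (95% interval 0.36 to 1.48, adjusted p = 0.076). The macrophage marker sum ran from 90.3 to 240 RPKM in these livers and overlapped that of hypothyroid WT, with a mean 1.44-fold higher, and none of the 11 markers was called. Endothelial and stellate markers had a median log2 difference of 0.53, with 1 of 7, Lyve1, past an adjusted p of 0.05 (0.042). Replicate 2 had both the highest Hmox1 and the highest marker sum, and without it the log2 difference was 0.69 (adjusted p = 0.10). Hmox1 divided by the marker sum was 0.0747 to 0.0936, above all 4 hypothyroid WT libraries. Sod2 was at 44.0, 43.1, 42.4 and 41.1 RPKM, below each hypothyroid WT library (5.36% of tested genes were lower without overlap), with a log2 difference of -0.19 (95% interval -0.32 to -0.05, adjusted p = 0.12).

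Nqo1 was at 15.9, 19.2, 13.6 and 17.6 RPKM in L-NCOR1ΔID livers, overlapping hypothyroid WT. Its log2 difference was 0.35 (95% interval -0.02 to 0.72, adjusted p = 0.27), on the other side of 0 from that with T3. Cat was at 1338, 1159, 1489 and 1652 RPKM (log2 difference -0.25, 95% interval -0.56 to 0.05, adjusted p = 0.33). Sod1 was at 558, 612, 606 and 512 RPKM, with a log2 difference of -0.01 (95% interval -0.23 to 0.22, adjusted p = 0.98). An absence of change is not shown by these p-values, and the intervals bound the differences that remain possible.

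Several of the genes varied more among the L-NCOR1ΔID livers than among the WT livers, while Nqo1 and Sod2 varied less. The coefficient of variation of Nqo1 was 14.5%, beside 21.9% in hypothyroid and 17.4% in hyperthyroid WT livers, and that of Sod2 was 2.85%, beside 4.52% and 11.7%. The share of all genes that varied more in L-NCOR1ΔID livers was not counted. Gclc was at 75.6, 43.1, 71.9 and 130 RPKM, a 3.03-fold range with a coefficient of variation of 45.4%, beside 6.59% in hypothyroid and 8.79% in hyperthyroid WT livers. Replicate 4 was the highest L-NCOR1ΔID library for Gclc and also for Gclm (59.9, 56.8, 63.6 and 86.4 RPKM), Gsr (41.0, 37.2, 42.3 and 59.3 RPKM), Txnrd1 (43.3, 42.2, 42.1 and 66.7 RPKM) and Srxn1 (23.1, 15.7, 17.7 and 33.1 RPKM). These 5 genes were thus high together in this liver, and Cat was highest in it too (1652 RPKM). Relative to the mean of the other L-NCOR1ΔID libraries on the log2 scale, replicate 4 was higher by 1.08 for Gclc, 0.52 for Gclm, 0.56 for Gsr, 0.65 for Txnrd1 and 0.83 for Srxn1, while the median over all tested genes was -0.04. Cat was higher in it by 0.32 and Nqo1 by 0.13, although Nqo1 was highest in replicate 2. Hmox1 (-0.57), Sod1 (-0.21) and Sod2 (-0.07) were lower. The other listed glutathione genes (7 of 17 above the other L-NCOR1ΔID libraries, median -0.04) and thioredoxin genes (7 of 16, median -0.02) were not high in it. Of the 19 other NRF2 targets described below, 11 were above the other libraries, with a median of 0.06. In the same library 0 of 11 macrophage markers (median -0.88), 1 of 7 endothelial and stellate markers (-0.39) and 5 of 5 blood markers (0.80) were above the others, and their part in these values was not tested. Replicate 2 was the lowest library for Gclc (-1.05), Gclm (-0.28), Gsr (-0.33), Srxn1 (-0.60) and Cat (-0.36), and it was high for Hmox1 (0.91).

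Without replicate 4 the adjusted p was 0.043 for Gclm (log2 difference -0.32), 0.043 for Txnrd1 (-0.27), 0.044 for Hmox1 (1.06) and 0.078 for Gclc (-0.64). Thus 3 of the 10 genes passed an adjusted p under 0.05 and none passed 0.01. Over all tested genes that fit called 187 at 0.01, beside 175 with replicate 4 kept. Its share at 0.05 was not counted, so that these 3 genes cannot be set beside a share of all genes. Replicate 4 was singled out after several of these genes were seen to be extreme in it. The ratio of Gclm to Gclc was 0.793, 1.32, 0.885 and 0.663 in L-NCOR1ΔID livers and did not differ from hypothyroid WT beyond the spread (exact two-sided permutation p = 0.514, also after adjustment). The ratio of Sod2 to Sod1 was 0.0749 ± 0.00548 (SD, n = 4), with an exact two-sided permutation p of 0.0857 (0.114 adjusted).

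**Figure D4:**
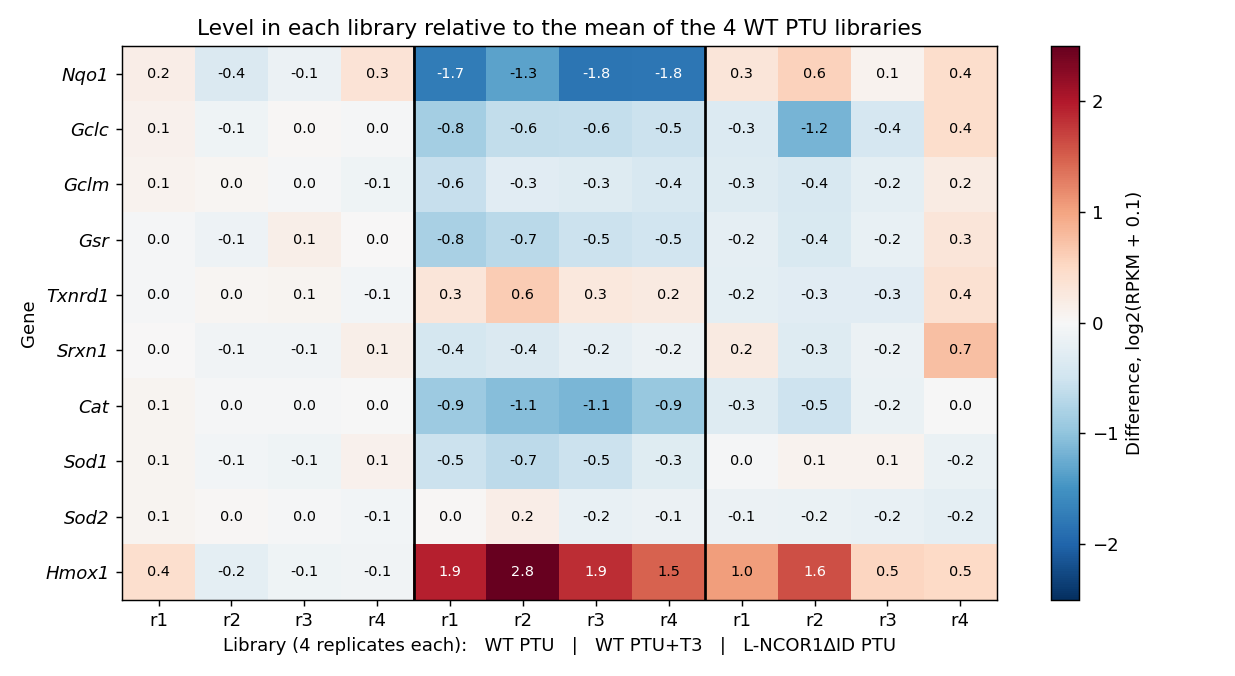
Level of each gene in each of the 12 libraries as the difference in log2(RPKM + 0.1) from the mean of the 4 hypothyroid WT libraries (colour and printed value). Nqo1 and Cat are blue and Hmox1 is red in all 4 hyperthyroid libraries, and in L-NCOR1ΔID replicate 4 Gclc, Gclm, Gsr, Txnrd1 and Srxn1 are above 0 together.

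Hyperthyroid WT and hypothyroid L-NCOR1ΔID livers differ in hormone and genotype at once, and between them 2 of the 10 genes were called, where 21.2% of 14017 tested genes were. Nqo1 was lower in hyperthyroid WT livers by 2.03 on the log2 scale (SE 0.14, adjusted p = 2.8e-05), and no library of either group overlapped. Cat had a log2 difference of -0.77 (SE 0.16, adjusted p = 0.0053), a call that was lost without replicates 1, 3 or 4 of L-NCOR1ΔID or any replicate of hyperthyroid WT (adjusted p = 0.011 to 0.021). At an adjusted p under 0.05, which 38.6% of tested genes passed, Sod1 (-0.50) and Gsr (-0.50) were also lower and Hmox1 (1.09) and Txnrd1 (0.47) higher in hyperthyroid WT livers. Txnrd1 (0.27 after scaling, adjusted p = 0.28) and Hmox1 (0.89, adjusted p = 0.059) did not pass at that threshold after scaling, and Sod2 went from 0.15 to -0.05.

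Among the genes that control NRF2, the lists of which were chosen with results of these data known, none of 13 was called with T3. Before scaling 6 passed an adjusted p under 0.05, 3 in each direction, where 37.6% of all tested genes were higher and 11.7% lower. Nfe2l2, which encodes NRF2, was at 31.4, 29.2, 28.9 and 31.9 RPKM in hypothyroid and at 23.1, 20.8, 20.9 and 19.2 RPKM in hyperthyroid WT livers (log2 difference -0.53, SE 0.07, adjusted p = 4.6e-04). Each hyperthyroid library was thus below each hypothyroid one for the RNA of NRF2 itself, where 10.8% of tested genes were lower without overlap. The NRF2 protein was not measured. Keap1 was at 15.2 to 16.8 RPKM in hypothyroid and at 13.8 to 17.1 RPKM in hyperthyroid WT livers (log2 difference -0.03, adjusted p = 0.79). After scaling its log2 difference was -0.27 (adjusted p = 0.018). Bach1 was at 10.3 to 11.4 RPKM and at 7.15 to 17.0 RPKM (-0.14, adjusted p = 0.63), and in hyperthyroid replicate 2, the library with the highest Hmox1, it was highest. The small MAF gene Mafg was at 31.2 ± 2.63 and 25.8 ± 2.02 RPKM (-0.27, adjusted p = 0.023). The even split was not kept after scaling. Of the higher genes Gsk3b still passed an adjusted p under 0.05 (0.35, adjusted p = 0.018), while Nfe2l1 (0.085) and Cul3 (0.83) did not. Nfe2l2 (-0.77), Mafg (-0.51) and Sqstm1 (-0.61) stayed lower at that threshold, and Keap1 and Mafk (-0.68, adjusted p = 0.020) joined them. In L-NCOR1ΔID livers none of the 13 passed an adjusted p under 0.05, and 1 had an unadjusted p under 0.05. The log2 differences there were 0.02 for Nfe2l2, -0.01 for Keap1, -0.16 for Bach1 and -0.18 for Mafg.

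In a list of 19 other NRF2 targets, most of them enzymes and transporters of drug metabolism, 12 were called lower with T3 and 2 higher (3.47% and 8.28% of all tested genes), with a median log2 difference of -1.49 (-1.73 after scaling). The largest fall was that of Abcc3, an export pump for glucuronides and bile acids, from 135 ± 24.6 to 4.43 ± 1.23 RPKM (log2 difference -4.92, adjusted p = 2.4e-06). The glutathione S-transferases Gsta1 (-4.23), Gsta2 (-4.19) and Gstm1 (-2.71) also fell, and Gstm1 went from 2447 ± 371 to 384 ± 123 RPKM. Gsta and Gstm genes have near-identical copies, so that reads may be split between them and single values are uncertain. Osgin1, an oxidative stress response gene, rose from 32.9 ± 12.2 to 234 ± 54.1 RPKM (2.87, adjusted p = 5.2e-05). In L-NCOR1ΔID livers 1 of the 19 was called, Gstm3, which was at 269, 262, 313 and 327 RPKM in hypothyroid WT and at 963, 1197, 873 and 1092 RPKM in L-NCOR1ΔID livers (1.81, adjusted p = 2.7e-04). With T3 it stood at 109 ± 55.3 RPKM and was called lower (-1.54), the opposite direction.

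The other glutathione genes moved in both directions. Of 19 listed, 16 were tested with T3, and 3 were called higher and 1 lower (8.28% and 3.47% of all tested genes). The median log2 difference was 0.59 (0.35 after scaling). At an adjusted p under 0.05, 8 were higher and 2 lower. Gpx1, the main cytosolic glutathione peroxidase, which like catalase removes hydrogen peroxide, rose from 823 ± 131 to 1879 ± 165 RPKM (1.20, adjusted p = 2.2e-04; 0.96 after scaling, under the size limit). Ggct, a gamma-glutamylcyclotransferase, rose from 1.67 ± 0.110 to 7.13 ± 1.08 RPKM (2.02), and Slc3a2, a subunit of amino acid exchangers, from 11.8 ± 1.44 to 27.1 ± 7.98 RPKM (1.16; 0.93 after scaling, also under it). Ggt6, of the gamma-glutamyltransferase family, fell from 11.1 ± 1.70 to 2.60 ± 0.746 RPKM (-2.09). In L-NCOR1ΔID livers none of 17 tested was called, while 3 passed an adjusted p under 0.05 (Gss among them, log2 difference -0.41) and 9 an unadjusted p under 0.05.

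Before scaling none of 16 thioredoxin and peroxiredoxin genes was called in either comparison with hypothyroid WT. At an adjusted p under 0.05, 2 were higher and 6 lower with T3 (37.6% and 11.7% of all tested genes), and 1 was higher and 1 lower in L-NCOR1ΔID livers (4.36% in either direction). At an unadjusted p under 0.05 there were 9 and 4. Txnip with T3 had a log2 difference of -0.91 (adjusted p = 0.0028), and of -1.15 (adjusted p = 0.0013) after scaling, which passes the call rule. Of the genes higher with T3, Txnrd3 (0.60 after scaling, adjusted p = 0.010) still passed 0.05, while Prdx3 (-0.02, adjusted p = 0.86) did not. The median log2 difference of the list with T3 was -0.15, and -0.39 after scaling. Among 10 further genes of superoxide, haem and iron, Hmox2, the constitutive haem oxygenase, was higher in both comparisons, with 20.5 ± 0.965 RPKM in hypothyroid WT, 44.3 ± 5.26 RPKM in hyperthyroid WT (1.10, adjusted p = 3.1e-05; 0.86 after scaling, under the size limit) and 30.5 ± 2.45 RPKM in L-NCOR1ΔID livers (0.57, adjusted p = 0.0045). Blvrb, the flavin and biliverdin reductase, fell with T3 from 152 ± 15.8 to 65.7 ± 3.08 RPKM (-1.21, adjusted p = 1.7e-05). The haem oxygenases were thus higher and this reductase lower in the same livers. Blvra, the other biliverdin reductase of the list, was higher, at 8.93 ± 0.524 beside 7.25 ± 0.211 RPKM. Its log2 difference was 0.30 (adjusted p = 0.0076), and 0.06 after scaling.

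NADPH drives glutathione reductase, thioredoxin reductase and Nqo1, and of 11 genes of its supply 2 were called higher and 1 lower with T3. Me1, malic enzyme, rose from 24.3 ± 8.92 to 134 ± 19.9 RPKM (2.52, adjusted p = 7.2e-05). G6pdx, which opens the pentose phosphate pathway, rose from 1.43 ± 0.120 to 3.86 ± 0.876 RPKM (1.35, adjusted p = 1.6e-04), and Idh2, the mitochondrial NADP-dependent isocitrate dehydrogenase, fell from 72.8 ± 20.4 to 24.9 ± 3.24 RPKM (-1.51, adjusted p = 2.7e-04). G6pdx was the only one of the 11 called in L-NCOR1ΔID livers, at 4.01, 2.66, 4.62 and 4.13 RPKM (1.35, adjusted p = 0.0033), so that its level there overlapped that of hyperthyroid WT livers.

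**Figure D5:**
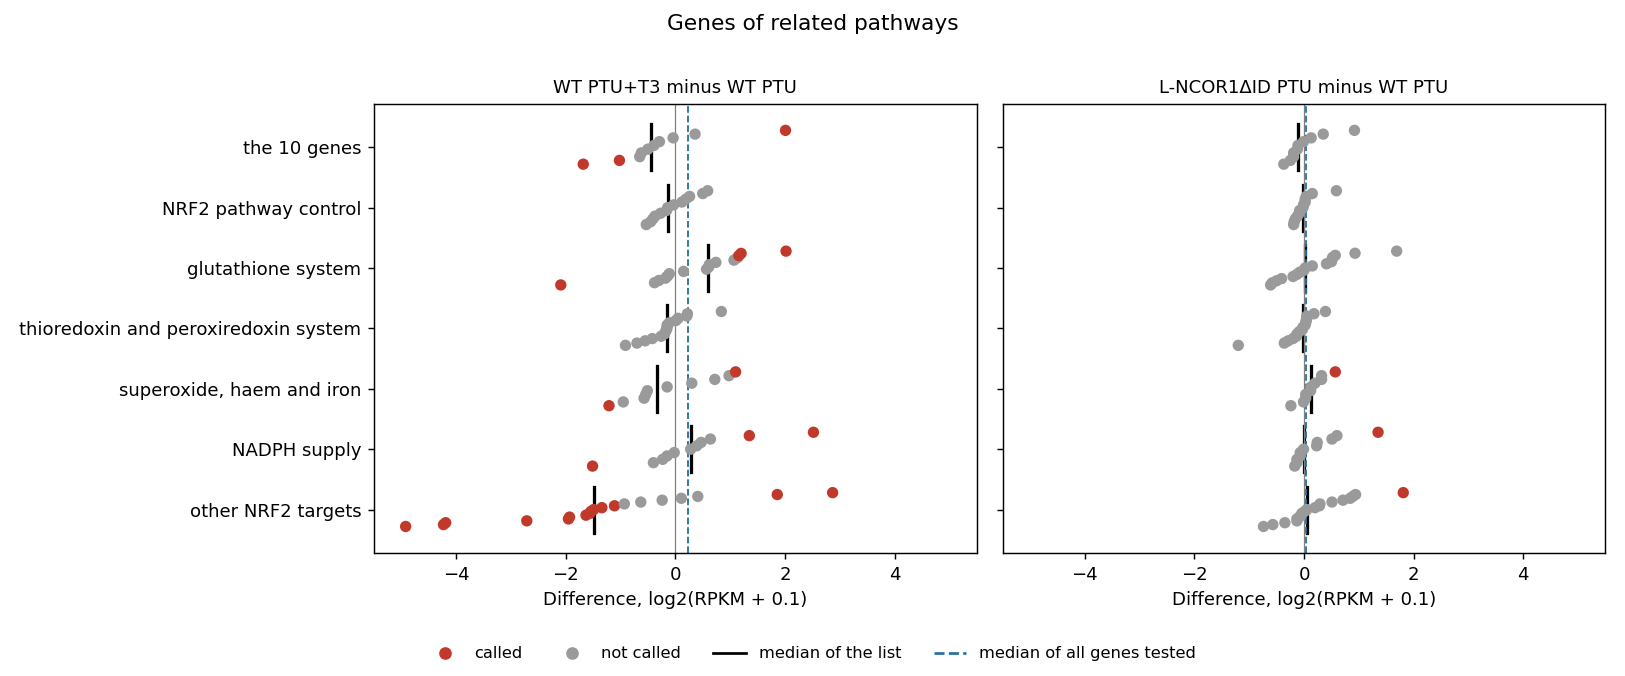
Difference in log2(RPKM + 0.1) of each tested gene in the 10 genes and in 6 lists of related genes (points, red where called), with the median of each list (black bar) and of all tested genes (dashed line), for T3 in WT (left) and for L-NCOR1ΔID (right). With T3 the median of the other NRF2 targets lies at -1.49 and that of the glutathione list at 0.59, and in L-NCOR1ΔID livers 3 of the listed genes (Hmox2, G6pdx and Gstm3) were called.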

How the data were processed

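RNA-seq of 12 liver libraries was analysed (4 per group), with the list of H3 acetylated regions. The authors aligned reads to mm9 with STAR and used HOMER to obtain the deposited RPKM of each RefSeq transcript (versions are not given in the sources used here). The deposited region list holds start and end positions, merged by the authors over both marks and conditions. The 10 genes, the related lists and the tests were chosen with earlier results of these data known.

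Each of 23813 genes was represented by the first of its transcripts, and 1 transcript without a gene name was dropped (no more than 7.9e-04% of any library's RPKM). log2(RPKM + 0.1) was compared with limma 3.58.1 (R 4.3.3) (trended variance), adjusting p by Benjamini-Hochberg over all tested genes, which reached 0.1 RPKM in 4 or more of the 8 libraries. This limit is 2.11 to 4.23 reads per kilobase. Only the groups compared entered a fit, which was tested on simulated data. Ratios were compared with exact permutation tests (scipy 1.17.1). Named outside the 10 genes are Nfe2l2, Keap1, Bach1, Mafg, Dio1 and Ncor1, markers, and from each list the called genes with the largest differences. Gss, Blvra, Nfe2l1, Cul3, Gsk3b, Sqstm1, Mafk, Txnip, Txnrd3 and Prdx3 were named after their values were seen. 1 of 12 macrophage markers was not matched. The alternatives are given in the closing section.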

Additional observations from a re-analysis of the deposited data

Results flagged for a closer look

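The highest and the lowest library of each group of 4 were compared with their neighbours for the 10 genes and for Nfe2l2, Keap1, Bach1 and Mafg. In 3 of 42 groups the gap to the nearest library was a larger share of the whole range than the critical value of Dixon's test allows, which chance gives in about 1 of 20 groups. Txnrd1 in L-NCOR1ΔID replicate 4 was at 66.7 RPKM, with the next library at 43.3 RPKM, a gap of 0.955 of the range. Bach1 in the same library was at 12.1 RPKM, with the next at 9.47 RPKM (0.854 of the range). This is the library in which Gclc, Gclm, Gsr, Srxn1 and Cat were also highest, and Bach1, which represses antioxidant response elements, was high in it as well. Nqo1 in hyperthyroid WT replicate 2 was at 5.04 RPKM, with the next at 3.78 RPKM (0.863 of the range). That value is still below every hypothyroid library, and the same library had the highest Hmox1, Bach1, Txnrd1, Gclm and Sod2 of its group.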

How the results depend on the processing

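The 3 calls with T3 among the 10 genes became 9 at an adjusted p under 0.05 without a size limit, and 2 to 3 when 1 library was left out. The 0 calls in L-NCOR1ΔID stayed at 0 under each alternative run. The 2 calls between hyperthyroid WT and L-NCOR1ΔID became 1 without a filter on low values, 5 with all 12 libraries in 1 fit, 4 with scaling by the median of gene ratios and 6 at an adjusted p under 0.05, and 1 to 3 when 1 library was left out. With 1 library left out, the ratio of Gclm to Gclc in L-NCOR1ΔID differed by -0.01 (without replicate 2) to 0.32 on the log2 scale, while the other ratio differences kept their direction, and the exact p cannot go below 0.0571. Differences near 0 also changed sign when 1 library was left out. Sod2 with T3 ran from -0.10 to 0.02, and in L-NCOR1ΔID Srxn1 ran from -0.08 (without replicate 4) to 0.28 and Sod1 from -0.04 to 0.05. Sod2 between hyperthyroid WT and L-NCOR1ΔID was -0.05 after scaling. The median number of acetylated regions near the 10 start sites was 8.5 within 100 kb and 5 within 50 kb.

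Same-numbered libraries correlated by -0.12 to 0.17 in their deviations from the group means, so the numbers do not pair them. With the replicate block 3, 0 and 2 of the 10 genes were called in the 3 comparisons, and in the last of them Hmox1, and not Cat, joined Nqo1. The exact sign-flip test of paired ratios gave p = 0.125 for both ratios with T3, the smallest it can give, and in L-NCOR1ΔID 0.375 for Gclm to Gclc and 0.250 for Sod2 to Sod1. Over all genes, the 1639 calls with T3 became 894 with a pseudocount of 1 and 6880 at an adjusted p under 0.05. The 175 calls in L-NCOR1ΔID became 43 without a filter, 45 with the block, 601 at an adjusted p under 0.05 and 67 to 187 without 1 library. The 2975 calls between hyperthyroid WT and L-NCOR1ΔID became 1769, 1642 and 5407 under the first 3 of these, and 1651 to 2672 without 1 library. Scaling changed the higher and lower calls from 1155 and 484 to 746 and 679 with T3, and from 2176 and 799 to 1048 and 1293 in the last comparison. The cause of these shifts was not tested. The shallowest library and 4 mice per group limit what can be called.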
